A study of Harpegnathos saltator with 19 samples.

Results

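Central brains of ants injected with 20-hydroxyecdysone (20E, the hormone that drives insect moults) were set directly against those of ants injected with juvenile hormone III (JH3). This contrast takes 14 of the 19 libraries of the series, 7 for 20E and 7 for JH3, and asks which genes separate the states under either hormone. The remaining 5 libraries, from DMSO controls, entered the fit and served to sort the genes that differed. All animals were workers of Harpegnathos saltator, an ant in which workers can become reproductive, and a library holds 1 ant. The 20E ants received 100 ng of 20E and the JH3 ants 100 ng of JH3, each in 5% glucose, injected into the head below the antennae. The brain was taken 10 h later. The protocol names 5% glucose for the hormone solutions and does not describe the DMSO injection separately, and it states no age. The series text calls the libraries biological replicates.

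In insects 20E binds a receptor made of EcR and Ultraspiracle (usp), which switches on a cascade of early nuclear receptor and ETS factor genes. Those factors in turn control late genes of moulting, metamorphosis and neuronal remodelling. Juvenile hormone acts through the bHLH-PAS receptor Met, whose best known target is Krüppel homolog 1 (Kr-h1), a zinc finger factor that opposes metamorphosis in other insects. In adult social insects both hormones are tied to reproduction and to the division of labour. Gene roles given below are those of the fly gene of the same symbol.

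Levels are the authors' FPKM values (fragments per kilobase of gene, scaled for library depth). Library depth, read back from the deposited values, ran from 15.58 to 22.71 M reads in 20E, from 13.04 to 24.2 M in JH3 and from 18.27 to 25.52 M in DMSO. The sample descriptions carry a run label, 190514 for replicates 1 to 3 and 200212 for the later ones, and it was a term of the fit because 4779 of 9381 genes (50.9%) differed between the runs. Libraries of 20E replicate 6 and JH3 replicate 1 stood apart from their groups, with fitted library weights of 0.142 and 0.207, so counts are also given without both. The summed level of 18 neuron markers was 1289 to 2245 FPKM in 20E, 1268 to 1687 in JH3 and 1237 to 1645 in DMSO. The highest value was that of 20E replicate 6, the library scaled up most relative to total reads (1.298). In such whole-tissue libraries fewer cells of a type and less RNA per cell cannot be told apart.

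Brains under the 2 hormones differed at 10 h in named groups of genes. The nuclear receptor genes Hr4 and E75, the cadherin gene Cad74A and some genes of cell junctions, actin and centrosomes were higher in 20E. Kr-h1, the Notch ligand gene Delta and some genes listed as transcriptional repressors or neural identity factors were higher in JH3. Of 9381 genes tested, 501 (5.34%) passed an adjusted p of 0.05 by limma with Benjamini-Hochberg adjustment. Of these, 366 (3.9% of the genes tested) were higher in 20E and 135 (1.44%) higher in JH3. Differences of more than 2-fold numbered 72 in the direction of 20E and 22 in the direction of JH3. Without adjustment, 1300 genes had a p under 0.05.

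The median log2 difference over all genes tested was -0.02. When libraries were scaled by total reads instead, the fit gave 324 genes higher in 20E and 184 higher in JH3, with the median of all genes at -0.08. Without 20E replicate 6 and JH3 replicate 1 the counts were 316 and 178, and 423 of the 501 genes kept their call. Within either run, fitted alone, each of the 501 genes kept its direction, though these libraries also gave the calls. A term for a hormone difference that changed between the runs called 0 genes by limma, with 248 at an unadjusted p under 0.05. The 20E and JH3 libraries did not overlap for 162 of the genes called higher in 20E and 37 of those called higher in JH3, beside 202 (2.15%) of all genes tested.

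**Figure D1:**
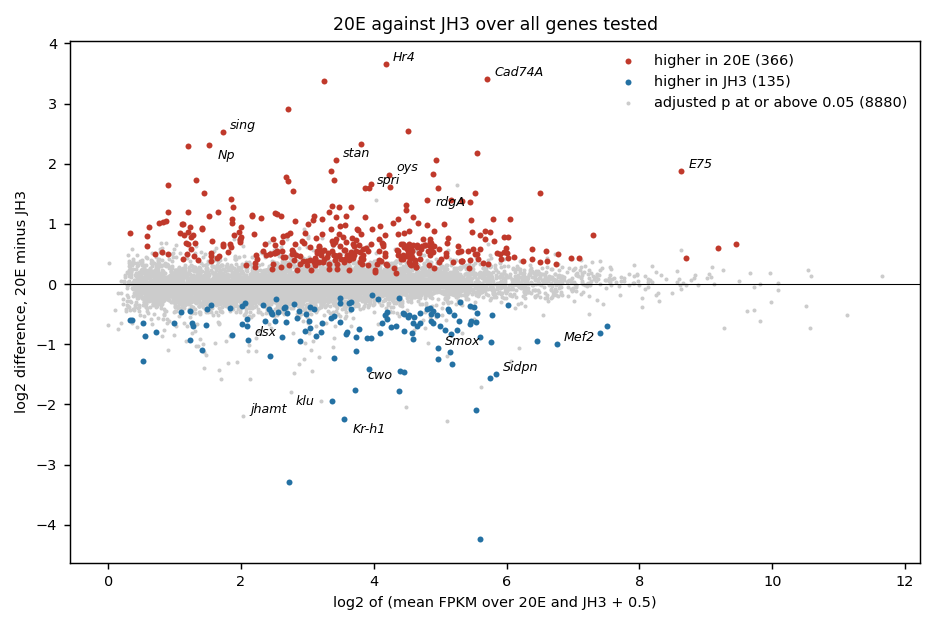
The log2 difference of 20E minus JH3 (vertical axis) is plotted against the log2 mean FPKM of the 14 libraries (horizontal axis) for 9381 genes, with genes past an adjusted p of 0.05 in red (366 higher in 20E) or blue (135 higher in JH3). The red points reach 3.65 with Hr4, and the lowest blue point, at -4.24, is a gene without a symbol.

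None of the receptor genes of ecdysone passed the test. Ecr averaged 6.54 FPKM in 20E and 6.96 FPKM in JH3, a log2 difference of -0.09 ± 0.10 (SE, adjusted p = 0.679 by limma). The partner gene usp averaged 47.6 and 48.4 FPKM in 20E and JH3, a log2 difference of -0.04 ± 0.16 (adjusted p = 0.912 by limma). None of the 5 measured receptor and cofactor genes passed, and their median log2 difference was -0.02.

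Among the genes downstream of the receptor, several did. Of 14 measured ecdysone response factors, 6 were higher in 20E and 1 in JH3 (50% called, beside 5.34% over all genes tested). Their median log2 difference was 0.28 against -0.02 over all genes tested. Hr4, a nuclear receptor of the cascade, had 25.1 FPKM in the lowest 20E library, a median of 31.2 and a highest value of 48.0, against 1.54, 2.37 and 2.57 FPKM in JH3 and 0.76, 1.13 and 1.58 FPKM in DMSO. Every 20E library lay far above every JH3 library, and the JH3 libraries lay mostly above the DMSO ones. The log2 difference was 3.65 ± 0.13 (SE, adjusted p = 1.26e-12 by limma), the largest of any gene with a symbol. E75, whose product is a haem-binding nuclear receptor and one of the earliest genes of the cascade, had 472, 621 and 882 FPKM (lowest, median, highest) in 20E, 110, 170 and 237 FPKM in JH3 and 64.0, 74.6 and 92.4 FPKM in DMSO. The 3 groups did not overlap, with 20E on top and JH3 in the middle. Its log2 difference between the hormones was 1.88 ± 0.12 (adjusted p = 4.74e-09 by limma).

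The ETS factor gene Eip74EF followed, at 46.1 to 82.2 FPKM in 20E and 19.7 to 31.3 FPKM in JH3 (log2 1.36 ± 0.10). Smaller differences in the same direction were those of the nuclear receptor genes Hr39 (0.56 ± 0.12) and Hr3 (0.52 ± 0.10) and of the cyclin-dependent kinase gene Eip63E (0.27 ± 0.07). The Eip63E call ended with scaling to total reads (log2 0.21, adjusted p = 0.0523 by limma) and without JH3 replicate 4 or 6. Hr38, an NR4A nuclear receptor gene that also responds to neuronal activity, was the member on the other side. It had 58.0, 113 and 199 FPKM in 20E and 80.0, 213 and 378 FPKM in JH3 (lowest, median, highest), so the groups overlapped widely, and its log2 difference was -0.81 ± 0.20 (adjusted p = 0.0211 by limma). That call ended without 20E replicate 2, JH3 replicate 4 or JH3 replicate 6. Members that did not pass included the pupal factor gene br (-0.33 ± 0.20), ftz-f1 (-0.41 ± 0.14), Blimp-1 (0.57 ± 0.20) and Eip93F (-0.03 ± 0.15). Of these, ftz-f1, the nuclear receptor gene that follows the early cascade, passed on the JH3 side without 20E replicate 6 and JH3 replicate 1 (log2 -0.57, adjusted p = 0.00811 by limma) and under total-read scaling, quantile normalization and removal of the length trend (log2 -0.45 to -0.50). Blimp-1 passed on the 20E side with the length trend removed (log2 0.49, adjusted p = 0.0258 by limma).

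Genes that move or degrade ecdysteroids were called in both directions. Of 4 measured members, 2 were higher in 20E and 1 in JH3 (75% called, beside 5.34% over all genes tested), and Npc1a did not pass. Cyp18a1, whose enzyme inactivates ecdysteroids, had 0.928 to 4.55 FPKM in 20E and 0.417 to 1.32 FPKM in JH3 (log2 1.21 ± 0.25, adjusted p = 0.00475 by limma). E23, an ABC transporter gene induced by ecdysone in flies, had 5.14 to 24.2 FPKM in 20E and 3.68 to 6.87 FPKM in JH3 (log2 1.19 ± 0.28, adjusted p = 0.0115 by limma). Both groups of libraries overlapped for either gene, and the E23 call ended without 20E replicate 6 and JH3 replicate 1 (adjusted p = 0.0587 by limma). The ecdysone importer gene Oatp74D lay on the JH3 side, at 11.6, 13.6 and 34.1 FPKM in 20E (lowest, median, highest), 18.5, 29.2 and 41.6 FPKM in JH3 and 5.3, 8.14 and 12.6 FPKM in DMSO. It was above DMSO under either hormone, more so in JH3 (log2 difference between the hormones -0.81 ± 0.20, adjusted p = 0.0204 by limma), and the call ended without JH3 replicate 1 (log2 -0.76).

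Of 6 measured genes of juvenile hormone signalling and metabolism, 0 were higher in 20E and 2 in JH3 (33.3%, beside 1.44% over all genes tested). Kr-h1 had 1.72, 2.58 and 14.4 FPKM (lowest, median, highest) in 20E, 5.85, 19.5 and 26.2 FPKM in JH3 and 0.405, 1.63 and 3.09 FPKM in DMSO. The 20E value of 14.4 FPKM came from replicate 6, and the other 6 libraries of 20E lay at or below 2.91 FPKM, under every JH3 library. The log2 difference was -2.24 ± 0.35 (adjusted p = 0.000349 by limma), and -2.53 without that library. The bHLH repressor gene hry (hairy), a juvenile hormone target in mosquitoes, had 11.4 to 17.9 FPKM in 20E and 19.3 to 26.7 FPKM in JH3, with no overlap (log2 -0.71 ± 0.10, adjusted p = 0.000111 by limma).

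The gene jhamt, for a methyltransferase of juvenile hormone synthesis in the corpora allata, did not pass the threshold with all libraries (log2 -2.20 ± 0.68, adjusted p = 0.0741 by limma). Without 20E replicate 6 and JH3 replicate 1 it passed on the JH3 side (log2 -2.66, adjusted p = 0.0341 by limma), which made 3 of the 6 genes. It had 0.0138 to 0.039 FPKM in 4 of the 7 libraries of 20E and 1.95 to 5.58 FPKM in the other 3. All 7 JH3 libraries held 3.15 to 8.44 FPKM. DMSO held 4.1 to 4.77 FPKM in 3 libraries and 0.0221 and 0.055 FPKM in 2. Libraries near 0 thus occurred in 20E and DMSO but not among those of JH3.

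**Figure D2:**
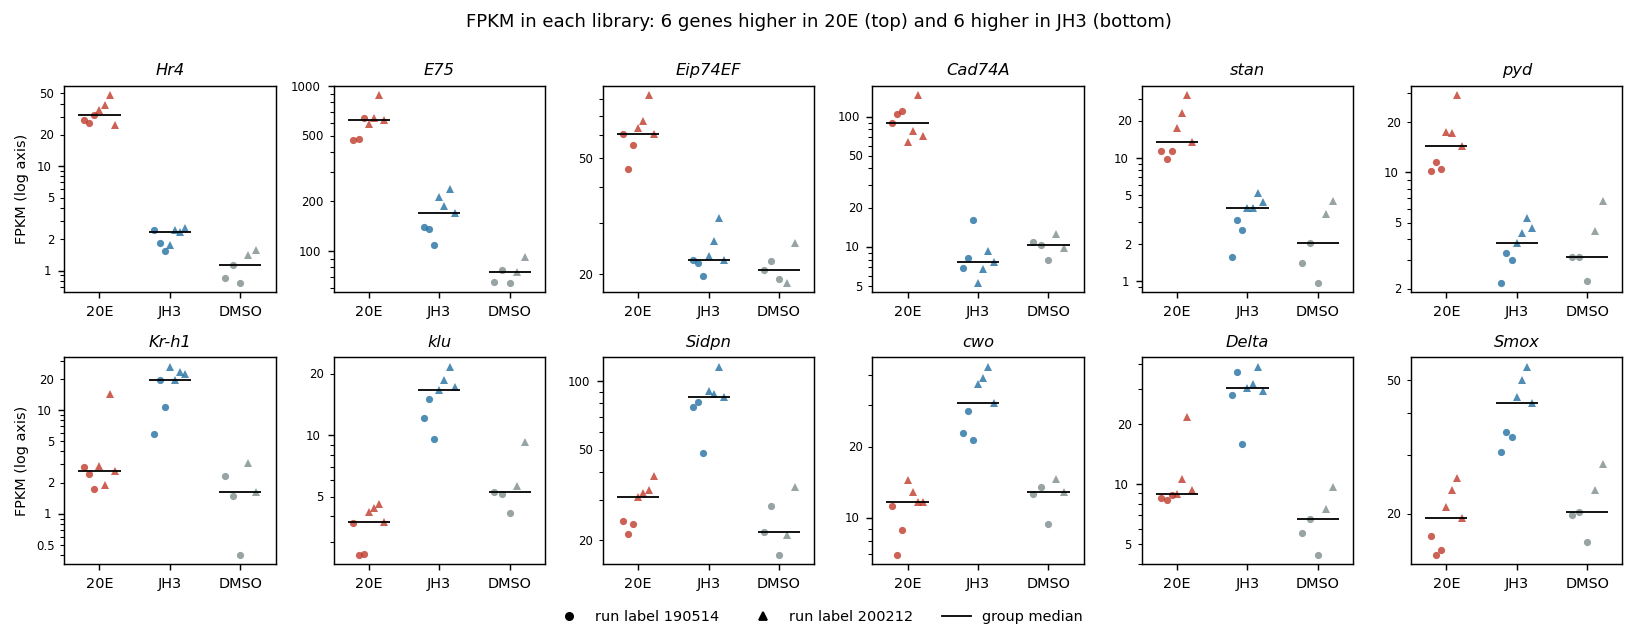
FPKM of each library (log axis) in 20E, JH3 and DMSO for 12 genes, with circles for run label 190514, triangles for 200212 and a bar at the group median. The 20E libraries of Hr4 (25.1 to 48.0 FPKM) lie above all others, and 20E replicate 6 stands among the JH3 libraries for Kr-h1 (14.4 FPKM) and Delta (21.6 FPKM).

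Some genes on a list of Hairy-family transcriptional repressors, and of factors that act with or beside them, were higher in JH3. The list was chosen with earlier results of these data known, so its counts describe and do not test. Of 10 measured members, 0 were higher in 20E and 5 in JH3 (50%, beside 1.44% over all genes tested). The other 5 did not pass, and the median log2 difference of the list was -0.48. The zinc finger gene klu (klumpfuss), which is not itself a bHLH gene and acts in neural progenitors, had 2.6, 3.75 and 4.6 FPKM in 20E, 9.61, 16.8 and 21.6 FPKM in JH3 and 4.14, 5.26 and 9.23 FPKM in DMSO (lowest, median, highest). All 20E libraries lay below all JH3 libraries, and the DMSO ones between them except at the edge with 20E (log2 -1.95 ± 0.11, adjusted p = 2.49e-09 by limma). Sidpn, a Hes-type repressor gene related to deadpan, had 21.4 to 38.3 FPKM in 20E and 48.4 to 116 FPKM in JH3 (log2 -1.50 ± 0.13). For cwo, a repressor of clock gene transcription, the ranges were 6.99 to 14.4 FPKM in 20E and 21.4 to 43.5 FPKM in JH3 (log2 -1.47 ± 0.12). The HLH gene emc, whose product lacks a DNA-binding region and titrates bHLH activators, had 44.7 to 84.96 FPKM in 20E and 96.6 to 137 FPKM in JH3 (log2 -0.95 ± 0.11). The groups did not overlap for any of these 4 genes, and the adjusted p of the 5 called members ran up to 0.000111 by limma. Without 20E replicate 6 and JH3 replicate 1, 5 members were again higher in JH3 and 0 in 20E. Against DMSO, Sidpn, cwo and hry were called for JH3 alone, where they were higher. By contrast emc, at 77.3 to 92.8 FPKM in DMSO, was called for 20E alone, where it was lower.

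Notch signalling feeds such repressors, and few of its genes were called. Of 22 measured members, 2 were higher in 20E and 1 in JH3 (13.6% called, beside 5.34% over all genes tested). The other 19 did not pass, and the median log2 difference of the list was 0.04. The ligand gene Delta had 8.32, 8.93 and 21.6 FPKM in 20E, 16.0, 30.2 and 38.6 FPKM in JH3 and 4.45, 6.67 and 9.64 FPKM in DMSO (lowest, median, highest). Apart from 20E replicate 6, at 21.6 FPKM, the 20E libraries lay below the JH3 ones (log2 -1.45 ± 0.18, adjusted p = 2.86e-05 by limma). The metalloprotease gene kuz, which cleaves the receptor, was higher in 20E (0.50 ± 0.10, adjusted p = 0.00575 by limma). The receptor gene N was too (0.64 ± 0.17, adjusted p = 0.0249 by limma), with ranges of 7.43 to 19.03 FPKM in 20E and 3.0 to 9.36 FPKM in JH3, but the N call ended when any of 8 libraries was left out, and without 20E replicate 6 and JH3 replicate 1 (0.44, adjusted p = 0.109 by limma).

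Some genes on a list of neural temporal and identity factors were also higher in JH3 than in 20E. The list was chosen with earlier results of these data known. Of 26 measured members, 0 were higher in 20E and 7 in JH3 (26.9%, beside 1.44% over all genes tested), 19 did not pass, and the median log2 difference of the list was -0.10. The largest was Glut4EF, a zinc finger factor gene, at 15.8 to 36.8 FPKM in 20E and 39.0 to 62.6 FPKM in JH3 (log2 -1.14 ± 0.15). It was followed by ken, a BTB zinc finger repressor gene (6.39 to 9.06 FPKM in 20E, 14.9 to 25.6 FPKM in JH3, log2 -1.11 ± 0.11), and Mef2, a MADS-box factor gene (44.5 to 99.0 FPKM in 20E, 90.4 to 188 FPKM in JH3, log2 -1.003 ± 0.12). The sex differentiation factor gene dsx had 1.75, 2.18 and 3.58 FPKM in 20E, 4.52, 5.03 and 5.73 FPKM in JH3 and 3.11, 3.42 and 3.62 FPKM in DMSO (lowest, median, highest). The 20E and JH3 libraries of dsx did not overlap, and DMSO lay between the 2 hormone medians (log2 -0.93 ± 0.10, adjusted p = 4.66e-06 by limma). The others were the Pax6 gene toy (-0.78 ± 0.13) and the ETS genes Ets97D (-0.63 ± 0.07) and Ets98B (-0.44 ± 0.11). The Ets98B call ended without 20E replicate 6 and JH3 replicate 1 and with quantile normalization (adjusted p = 0.0735 and 0.0828 by limma). Against DMSO, Glut4EF and Mef2 were called for JH3 alone, but ken and Ets97D for 20E alone, where they were lower. Ets97D had 3.81 to 5.05 FPKM in 20E, 6.63 to 7.66 FPKM in JH3 and 7.48 to 8.91 FPKM in DMSO.

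Outside these lists, Smox, the Smad gene of activin signalling, had 15.1 to 25.5 FPKM in 20E and 30.6 to 54.9 FPKM in JH3, with no overlap (log2 -1.07 ± 0.08, adjusted p = 2.58e-08 by limma). It was the only one of 15 measured TGF-beta and BMP genes to pass. The gene of the insulin-restrained factor foxo had 3.3 to 6.09 FPKM in 20E and 7.07 to 11.2 FPKM in JH3, again with no overlap (log2 -0.94 ± 0.12). Among 123 measured genes of sequence-specific transcription factors, a list drawn up after these values were seen, 10 were higher in 20E and 19 in JH3. Such factors made up 10 of the 151 genes with a symbol that were higher in 20E (6.62%) and 19 of the 62 that were higher in JH3 (30.6%), against 3.18% of the genes with a symbol that were tested. The factors on the 20E side were, beside those of the ecdysone cascade, cyc and Clk of the clock, noc, Drgx and NFAT.

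**Figure D3:**
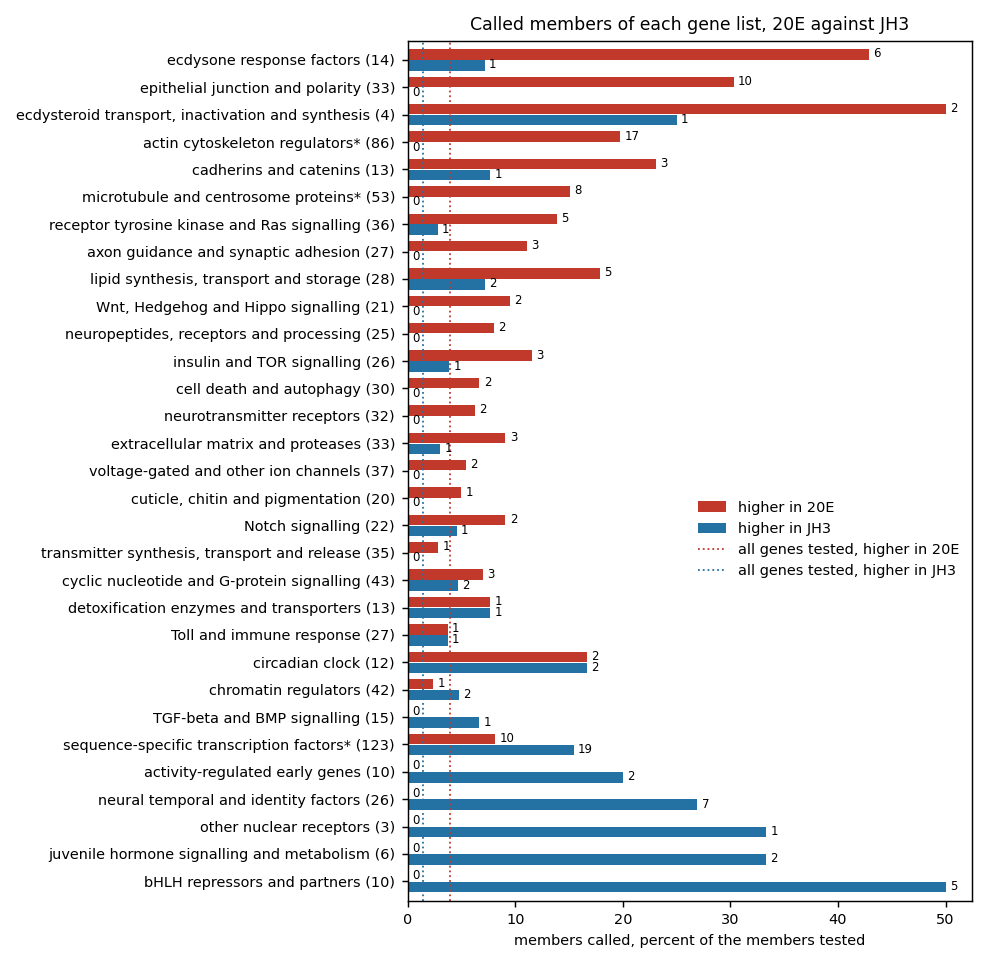
For each gene list with at least 1 call, bars give the percentage of its measured members (number in brackets) that were higher in 20E (red) or in JH3 (blue), with the count at the bar's end. Dotted lines mark the share over all genes tested, 3.9% and 1.44%, and an asterisk marks lists drawn up after values were seen. The lists without an asterisk were chosen with earlier results of these data known, so all bars describe and do not test.

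Genes of cell contacts were another group with calls on the 20E side. Their lists were chosen with earlier results of these data known, so the counts describe and do not test. Of 33 measured genes of epithelial junctions and polarity, 10 were higher in 20E (beside 3.9% over all genes tested) and 0 in JH3, with a median log2 difference of 0.15. Of 13 cadherin and catenin genes, 3 were higher in 20E and 1 in JH3 (30.8% called, beside 5.34% over all genes tested), with a median of 0.25. Without 20E replicate 6 and JH3 replicate 1 these medians were 0.07 and 0.12. Cad74A, a cadherin gene known from the follicle epithelium, had 64.1, 89.8 and 146 FPKM (lowest, median, highest) in 20E, 5.29, 7.69 and 16.1 FPKM in JH3 and 7.9, 10.4 and 12.6 FPKM in DMSO. The 20E libraries stood alone, and JH3 overlapped with DMSO (log2 3.41 ± 0.20, adjusted p = 2.49e-09 by limma). The seven-pass cadherin gene stan (flamingo), which acts in planar polarity and in the growth of axons and dendrites, had 9.78, 13.5 and 32.3 FPKM in 20E against 1.57, 3.92 and 5.19 FPKM in JH3 (log2 2.06 ± 0.17, adjusted p = 1.8e-07 by limma). The classical cadherin gene shg went the other way, at 5.66 to 9.49 FPKM in 20E and 8.27 to 11.2 FPKM in JH3 (log2 -0.41 ± 0.11), a call that ended without 20E replicate 2 or 3. Its partner gene arm, for beta-catenin, was higher in 20E by a small margin (0.33 ± 0.09, adjusted p = 0.0372 by limma), and any of 8 libraries left out ended that call.

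Within the junction list, pyd, for the ZO-1 scaffold of adherens junctions, had 10.2 to 29.0 FPKM in 20E and 2.17 to 5.32 FPKM in JH3 (log2 1.88 ± 0.14). The low-level genes sing, for a membrane protein of myoblast fusion, and Np, for a membrane serine protease of the tracheal system, had 2.79 to 7.89 and 2.63 to 6.74 FPKM in 20E. In JH3 they had 0.276 to 0.595 and 0.222 to 0.588 FPKM. Neither reached 1 FPKM in any JH3 or DMSO library. Both were therefore tested only through their 20E levels, and their calls are no support for the count of 10. Their log2 differences were 2.52 ± 0.17 and 2.31 ± 0.16, which the added 0.5 FPKM makes smaller than on the recovered reads (3.42 and 3.24 by voom). The polarity gene l(2)gl (0.78), the cell adhesion genes ed and sdk (0.63 each), the scaffold gene cno (0.57), the septate junction genes vari (0.50) and Gli (0.45), and M6 (0.37) made up the 10, and the Gli call ended when any 1 of 20E replicates 1 to 5 or JH3 replicates 4 and 5 was left out (adjusted p = 0.0563 to 0.0866 by limma). Without 20E replicate 6 and JH3 replicate 1 the count was 8 in 20E and 0 in JH3, as the sdk and cno calls ended (adjusted p = 0.142 and 0.136 by limma). With scaling to total reads it was 8 and 1, as those of Gli and M6 ended (adjusted p = 0.156 and 0.0612 by limma). The sdk call also ended with quantile normalization and voom (adjusted p = 0.0518 and 0.0606 by limma). The JH3 call under total-read scaling, also made under quantile normalization and with the length trend removed, was the scaffold gene dlg1 (log2 -0.27 to -0.31).

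Calls among cytoskeleton genes were on the 20E side. Among 86 measured actin regulators 17 (19.8%) were higher in 20E and 0 in JH3, and among 53 microtubule and centrosome genes 8 (15.1%) and 0, beside 3.9% and 1.44% over all genes tested. The other 69 and 45 genes did not pass, and the median log2 differences of the lists were 0.13 and 0.11, or 0.06 and 0.05 without 20E replicate 6 and JH3 replicate 1. Both lists were drawn up after these values were seen, so the counts describe and do not test. Shrm, the Shroom gene of apical constriction, had 11.9 to 27.3 FPKM in 20E and 3.61 to 9.29 FPKM in JH3 (log2 1.27 ± 0.12). The cofilin phosphatase gene ssh (slingshot) had 18.6 to 43.1 FPKM in 20E and 9.93 to 17.99 FPKM in JH3 (log2 1.12 ± 0.14). The beta-thymosin gene cib (ciboulot), which acts in brain metamorphosis of flies, had 75.6 to 102 FPKM in 20E and 35.3 to 56.1 FPKM in JH3 (log2 1.08 ± 0.10). Further called members were the septin gene pnut (0.66), SCAR (0.55) and the formin genes DAAM (0.48) and Frl (0.42). The centrosomal gene tacc had 45.3 to 75.8 FPKM in 20E and 18.5 to 25.1 FPKM in JH3 (log2 1.38 ± 0.10), and cnn (centrosomin) 15.7 to 30.9 and 6.99 to 12.2 FPKM (log2 0.92 ± 0.13). For milt, the gene of the kinesin adaptor of mitochondria, the ranges were 55.3 to 84.8 FPKM in 20E and 23.7 to 43.1 FPKM in JH3 (log2 0.88 ± 0.10). None of these 6 genes overlapped between the hormones.

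Gene length moved with this contrast. Across all genes tested the Spearman correlation of the log2 difference with relative gene length was 0.316, and 0.106 without 20E replicate 6 and JH3 replicate 1. The median actin regulator was 1.99 times as long as the median gene tested, the median microtubule gene 1.66 times and the median gene of the junction list 1.76 times. With the length trend removed from each library, the counts higher in 20E and in JH3 were 19 and 1 for actin, 9 and 0 for microtubules and 10 and 1 for junctions. Without both libraries the actin count was 15 and 0 and the microtubule count 6 and 0. The genes called in either direction were of similar length, with medians of 1.45 (20E) and 1.47 (JH3) times that of the median gene tested.

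**Figure D4:**
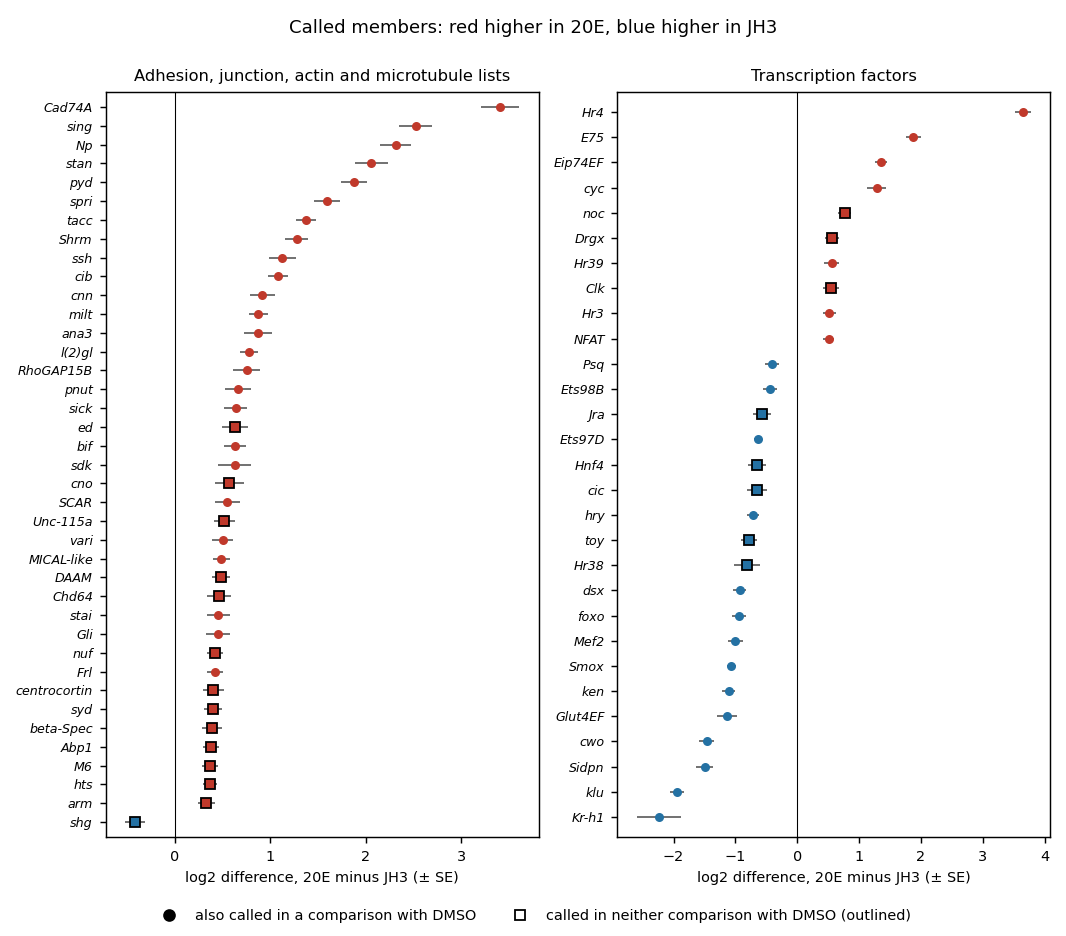
Log2 difference of 20E minus JH3 with its SE for each called member of the adhesion, junction, actin and microtubule lists (left) and of the transcription factor list (right), in red where higher in 20E and blue where higher in JH3. On the left shg is the sole blue point, while on the right 19 of the 29 factors are blue, and outlined squares mark genes called in neither comparison with DMSO.

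Other large differences on the 20E side were single genes of varied function. The phospholipid acyltransferase gene oys had 20.0 to 42.7 FPKM in 20E and 4.05 to 12.2 FPKM in JH3 (log2 1.81 ± 0.20, 2.45 and 1.33 within the runs). For spri, whose product activates Rab5 and binds Ras, the ranges were 17.2 to 28.4 FPKM in 20E, 4.64 to 8.31 FPKM in JH3 and 7.79 to 16.2 FPKM in DMSO (log2 1.60 ± 0.14). The 20E libraries of spri lay above DMSO and the JH3 libraries mostly below it. The C-type lectin gene nw (1.40 ± 0.19) and the diacylglycerol kinase gene rdgA (1.40 ± 0.11) followed, and neither overlapped between the hormones. The chitin-binding protein gene Gasp had 1.46 to 8.27 FPKM in 20E and 0.21 to 2.12 FPKM in JH3 (log2 1.73 ± 0.35, adjusted p = 0.00382 by limma), with overlap through JH3 replicate 2. The largest differences without a symbol were those of LOC112588181, a long non-coding RNA gene (9.83 to 35.01 FPKM in 20E, 0.818 to 1.55 FPKM in JH3, log2 3.37 ± 0.22), and LOC105185734 (2.92 ± 0.17). On the JH3 side they were LOC105186969, at 3.1 to 6.75 FPKM in 20E and 66.6 to 129 FPKM in JH3 (log2 -4.24 ± 0.19), and LOC105192299, at 0.539 to 0.907 and 8.28 to 18.02 FPKM (-3.30 ± 0.15). The latter met the expression filter only through the JH3 libraries. Among 417 long non-coding RNA genes tested, 8 were higher in 20E and 0 in JH3, smaller shares than the 3.9% and 1.44% over all genes tested.

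Genes of neuronal signalling differed in few places. For 2 of 37 ion channel genes, 2 of 32 transmitter receptor genes, 1 of 35 genes of transmitter synthesis and release and 2 of 25 neuropeptide genes the level was higher in 20E, and for 0 in JH3, shares of 2.86% to 8.0% beside 3.9% over all genes. The 0 in JH3 held under voom but not under every alternative. Ion channel counts in 20E and JH3 were 2 and 2 without 20E replicate 6 and JH3 replicate 1, 2 and 3 with total-read scaling, 2 and 1 with quantile normalization and 3 and 3 with the length trend removed. The JH3 calls there were Teh2, Teh3 and Teh4, of the TipE family of sodium channel subunits, and Task6, at log2 -0.25 to -0.48. The muscarinic receptor gene mAChR-A was higher in JH3 with total-read scaling, quantile normalization and the length trend removed (log2 -0.44 to -0.48). The serotonin receptor gene 5-HT2A had 10.0 to 19.7 FPKM in 20E and 4.5 to 6.89 FPKM in JH3 (log2 1.30 ± 0.14, adjusted p = 3.75e-06 by limma), with no overlap. The insulin-like peptide gene ILP-2 had 10.9, 15.5 and 20.5 FPKM in 20E, 5.26, 7.4 and 9.06 FPKM in JH3 and 8.14, 11.5 and 12.4 FPKM in DMSO (lowest, median, highest). The 20E and JH3 libraries of ILP-2 were separate, with DMSO reaching into both ranges (log2 0.99 ± 0.12). Others were the chloride channel gene ClC-a (0.85 ± 0.09), the potassium channel gene Elk (0.65 ± 0.14), the vesicular acetylcholine transporter gene VAChT (0.54 ± 0.11) and the SIFamide receptor gene SIFR (1.08 ± 0.28), whose call ended without both libraries named above (adjusted p = 0.0629 by limma). Guidance and adhesion genes added 3 of 27 (11.1%), namely Dscam2 (1.08 ± 0.21), Dscam3 (0.83 ± 0.16) and Ptp10D (0.60 ± 0.12).

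The circadian list was split within itself. Of 12 measured clock genes, 2 were higher in 20E and 2 in JH3 (33.3% called, beside 5.34% over all genes tested). The activator gene cyc had 3.29 to 6.4 FPKM in 20E and 0.986 to 1.99 FPKM in JH3 (log2 1.29 ± 0.15, adjusted p = 1.16e-05 by limma), and its partner gene Clk 12.1 to 21.7 and 8.31 to 12.4 FPKM (0.54 ± 0.13). The repressor gene per had 3.84 to 9.71 FPKM in 20E and 5.56 to 14.1 FPKM in JH3 (-0.87 ± 0.18, adjusted p = 0.00388 by limma), and cwo is described above. Thus the called activator genes were higher in 20E and the called repressor genes in JH3, while the other 8 measured members did not pass. Against DMSO, cyc and per were called for 20E alone, cwo for JH3 alone and Clk for neither. DMSO libraries had 6.18 to 15.0 FPKM of per, so per was low in 20E and was not called as raised in JH3. The labels give no time of day for the dissections.

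Metabolic and growth signalling showed scattered calls, beside 3.9% higher in 20E and 1.44% higher in JH3 over all genes tested. Several lists were near the 5.34% called in either direction, with 5.0% for cuticle, 6.67% for cell death, 7.14% for chromatin and 7.41% for Toll and immune genes. Of 26 insulin and TOR genes 3 were higher in 20E, ILP-2, the stress sensor gene Sesn (0.53) and the TORC2 subunit gene rictor (0.42), and 1 in JH3, foxo. Of 36 receptor tyrosine kinase and Ras genes 5 were higher in 20E, with the PDGF- and VEGF-related receptor gene Pvr (1.15 ± 0.15) after spri, and 1 in JH3, the ubiquitin ligase gene Cbl (-0.52). Of 28 lipid genes 5 were higher in 20E, among them the fatty acid synthase gene FASN1 (0.60 ± 0.14) and the peroxisomal transporter gene ABCD (0.94 ± 0.13), and 2 in JH3, the perilipin gene Lsd-1 (-0.81 ± 0.20) and Hnf4 (-0.65 ± 0.14). The Lsd-1 call ended without 20E replicate 6 and JH3 replicate 1 (adjusted p = 0.0589 by limma). Of 33 genes of extracellular matrix and proteases 3 were higher in 20E, Np (tested only through its 20E levels), the chondroitin synthase gene Chsy (0.64) and the integrin gene if (0.61). In JH3 1 was higher, the paxillin gene Pax (-0.90). Of 42 chromatin genes the histone demethylase gene Utx (0.59) was higher in 20E, and HDAC4 (-0.91) and the histone methyltransferase gene E(z) (-0.23) in JH3. The counts higher in 20E and in JH3 were 3 and 2 of 43 for cyclic nucleotide and G-protein signalling, 2 and 0 of 21 for Wnt, Hedgehog and Hippo signalling, 1 and 1 of 27 for Toll and immune genes, 1 and 1 of 13 for detoxification, 2 and 0 of 30 for cell death and autophagy, 1 and 0 of 20 for cuticle, and 0 and 1 of 3 for the other nuclear receptors. The Wnt, Hedgehog and Hippo counts were 2 and 1 without 20E replicate 6 and JH3 replicate 1, 2 and 2 with total-read scaling and 2 and 3 with the length trend removed, where fz2, hpo and nkd were higher in JH3. The detoxification counts were 1 and 3 without those libraries, and the cyclic nucleotide counts 2 and 3 there and 4 and 4 with the length trend removed. The Mtp call, one of the 5 in the lipid list, and those of if and E(z) ended in several of the alternatives tried. No gene passed in either direction among 60 ribosomal protein genes, 54 genes of oxidative phosphorylation, 32 of the proteasome and 16 chaperones, where median log2 differences were -0.13, -0.07, -0.05 and 0.03.

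Markers of other cells in the dissected tissue also held calls, and the glial, tracheal and fat body lists did so at 25%, 22.2% and 33.3% of their members, beside 5.34% over all genes tested. Their median log2 differences were 0.16, 0.36 and 0.20. Of 12 glia markers 3 were higher in 20E, the blood-brain barrier receptor gene moody (0.68 ± 0.12), the engulfment receptor gene drpr (0.55 ± 0.11) and Gli (0.45 ± 0.12), and 0 in JH3. The summed level of the 12 was 732 to 1421 FPKM in 20E, 644 to 1262 in JH3 and 1035 to 1441 in DMSO. Of 9 tracheal markers 2 were higher in 20E, Np and Gasp, and neither would have met the expression filter without the 20E libraries. The 9 summed to 32.0 to 67.3 FPKM in 20E, 22.6 to 58.6 in JH3 and 28.0 to 53.4 in DMSO. Of 9 fat body and haemolymph markers 2 were higher in 20E and 1 in JH3, with sums of 327 to 560 FPKM in 20E, 199 to 557 in JH3 and 260 to 567 in DMSO. The fat body count was 1 in 20E and 0 in JH3 without 20E replicate 6 and JH3 replicate 1. Of 15 photoreceptor and eye markers 1 was higher in 20E, rdgA, and 1 in JH3, Ttd14 (-0.39 ± 0.08). Of 6 haemocyte markers drpr was higher in 20E. None of 13 muscle markers, 3 chemosensory markers and 1 head gland marker passed. No listed marker was at 0 in every library, and the part of these cells in the differences was not tested.

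The comparisons with DMSO, which share their control libraries, sorted the 501 genes further. Against DMSO, 313 genes (3.34%) were called for 20E and 87 (0.927%) for JH3. Of the 366 genes higher in 20E than in JH3, 192 were also called for 20E against DMSO alone, 12 for JH3 alone and 5 for both. Of the 135 genes higher in JH3, 19 were called for 20E alone, 33 for JH3 alone and 6 for both. Among the genes called for both, E75, Hr4 and Traf4 were above DMSO under either hormone and highest in 20E, and Oatp74D and Ets98B above DMSO under either and highest in JH3. The genes klu and dsx were below DMSO in 20E and above it in JH3, and spri the reverse. For dsx the log2 differences from DMSO were -0.43 (20E, adjusted p = 0.0392) and 0.50 (JH3, adjusted p = 0.0361), both by limma.

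In neither comparison with DMSO were 234 of the 501 genes called (46.7%), 157 higher in 20E and 77 higher in JH3, and 98 of them had a symbol. Their differences between the hormones were smaller than those of the other called genes, with a median size of 0.50 against 0.79 on the log2 scale. The DMSO mean lay between the 2 hormone means for 211 of them, and the hormones differed from DMSO in opposite directions for 219. Genes in this class are bound to show that arrangement often, because a gene far from DMSO on one side would have been called there. DMSO had 5 libraries, so a missed call against it does not show that the level there was the same. Without 20E replicate 6 and JH3 replicate 1 the class held 173 genes, 90 higher in 20E and 83 in JH3, of which 128 were among the 234.

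Among those higher in 20E, noc, a zinc finger factor gene of head and eye development, had 8.87, 9.88 and 15.1 FPKM in 20E, 4.88, 5.9 and 7.17 FPKM in JH3 and 7.17, 8.76 and 9.83 FPKM in DMSO (lowest, median, highest). The hormone groups of noc did not overlap (log2 0.77 ± 0.11, adjusted p = 8.93e-05 by limma), while each differed from DMSO by less (0.27 for 20E, -0.49 for JH3, adjusted p = 0.432 and 0.0533 by limma). The immunoglobulin-family gene side-III had 29.1 to 44.9 FPKM in 20E and 17.3 to 28.0 FPKM in JH3, without overlap (0.58 ± 0.11). The sarcoglycan gene Scgbeta (0.33 ± 0.06), the copper transporter gene Ctr1A (0.39 ± 0.07) and the metallophosphoesterase gene Mppe (0.29 ± 0.06) differed little in size and also did not overlap. The Ctr1A and Mppe calls ended with scaling to total reads (adjusted p = 0.0611 and 0.0865 by limma). Javelin (jv, 0.81 ± 0.14), DAAM (0.48 ± 0.09) and Dscam3 passed with some overlap. The adenylyl cyclase gene Ac3 (0.45 ± 0.09) and the foraging kinase gene for (0.40 ± 0.10) joined them from the cyclic nucleotide list, and the for call ended without 20E replicate 6 and JH3 replicate 1 (adjusted p = 0.0608 by limma).

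Among those higher in JH3, the small GTPase gene Arl5 had 15.5 to 19.6 FPKM in 20E and 21.03 to 32.1 FPKM in JH3, without overlap (log2 -0.48 ± 0.08, adjusted p = 0.000465 by limma). The eye and brain development gene toy had 8.66, 17.4 and 21.5 FPKM in 20E, 18.3, 27.3 and 36.7 FPKM in JH3 and 14.1, 17.5 and 34.1 FPKM in DMSO (lowest, median, highest), with overlap between all groups (-0.78 ± 0.13). HDAC4, the class IIa histone deacetylase gene, had 10.8 to 24.3 FPKM in 20E and 24.0 to 44.5 FPKM in JH3, overlapping at the edge (-0.91 ± 0.15, -1.38 and -0.55 within the runs). The phosphoinositide phosphatase gene mtm had 9.62 to 11.2 FPKM in 20E and 12.2 to 15.0 FPKM in JH3 (-0.32 ± 0.06), a small difference without overlap. Others were the calcium sensor gene Stim (-0.38 ± 0.07), stac (-0.62 ± 0.12), the pseudokinase gene trbl (-0.65 ± 0.13) and the sulfonylurea receptor gene Sur (-0.87 ± 0.17, -1.46 by voom), which stayed at or under 1.97 FPKM in all groups. Of 10 activity-regulated early genes 2 were higher in JH3 (20%, beside 1.44% over all genes tested), Hr38 and the Jun gene Jra (-0.56 ± 0.14), both of this class. The Jra call ended without any 1 of 20E replicates 3 and 5 and JH3 replicates 1 and 2 (adjusted p = 0.0514 to 0.0605 by limma).

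**Figure D5:**
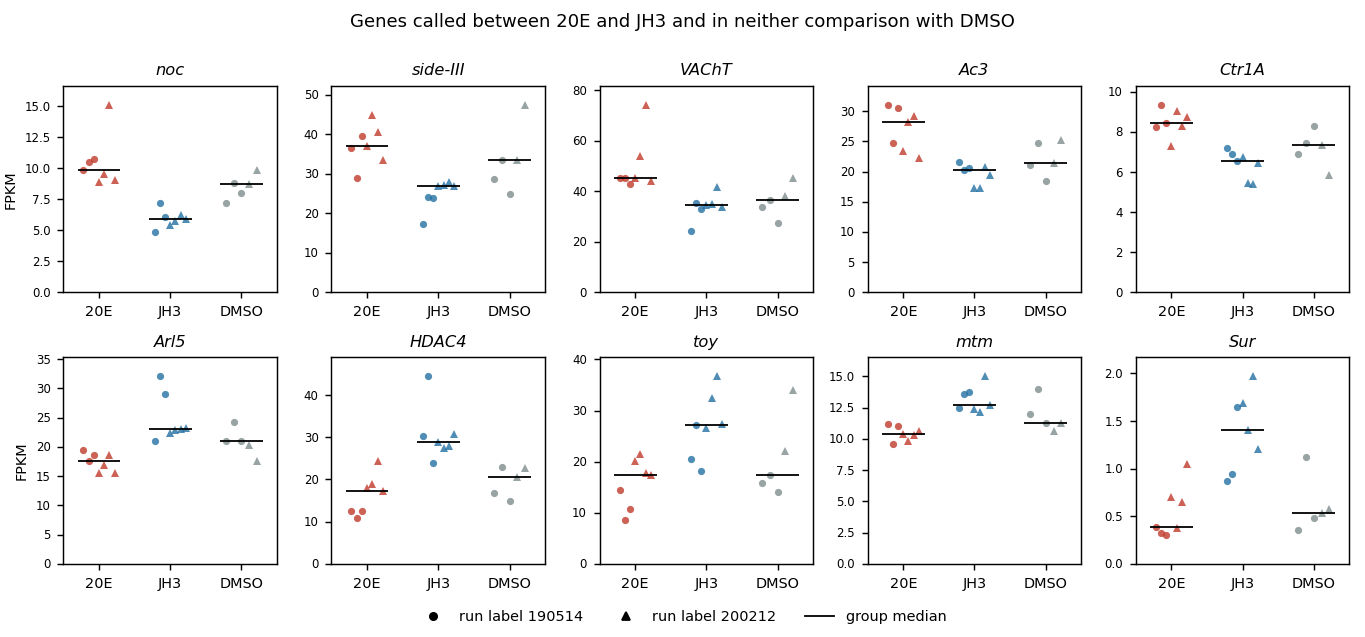
FPKM of each library (linear axis from 0) in 20E, JH3 and DMSO for 10 genes called between the hormones and in neither comparison with DMSO, 5 higher in 20E (top) and 5 higher in JH3 (bottom), with circles for run label 190514, triangles for 200212 and a bar at the median. In each panel the DMSO median lies between the 20E and JH3 medians, as for noc at 9.88, 5.9 and 8.76 FPKM in 20E, JH3 and DMSO.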

How the data were processed

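Poly(A) RNA of single central brains was sequenced from strand-specific dUTP libraries, per the labels' protocols. The authors deposited FPKM values for 14001 genes in 19 libraries; the submitters' processing notes name STAR and featureCounts, and as for versions, build and annotation, these were not given in the sources used here, so no coordinates are printed. Whole reads could be recovered from the FPKM steps (100% of genes within 0.02 of a whole read), which gave the depths. The range of the authors' scaling relative to total reads was 0.881 to 1.298, with the highest value in 20E replicate 6. No sample column was left unassigned.

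Genes with at least 1 FPKM in at least 5 libraries were tested (9381 genes, 67%). Some named genes met this filter only through 1 hormone, so their presence in the test depended on the difference itself. Among them sing, Np, Gasp and Cyp18a1 would not have met it without the 20E libraries, nor Sur and LOC105192299 without those of JH3. log2(FPKM + 0.5), computed from the deposited FPKM, was fitted with limma 3.58.1 in R 4.3.3 (means of the 3 groups plus the run label, trended prior variance, 19 libraries). The threshold was a Benjamini-Hochberg adjusted p of 0.05 over all genes. Differences are on the log2(FPKM + 0.5) scale, which understates low genes. The fit was tested on simulated data. Voom on the recovered reads was an alternative, and called 500 genes. Python 3.11.15, pandas 2.3.3, numpy 2.4.6 and matplotlib 3.10.9 handled tables and figures.

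Symbols are those of RefSeq for Hsal_v8.6 (13989 of 14001 identifiers matched, 12 unmatched, 4117 with a symbol). Of the called genes 288 had no symbol, and 89 of the 213 with one were on a list. The members, the 33 gene lists and 9 marker lists, and the tests were chosen with earlier results of these data known. The 3 further lists (actin, microtubules, transcription factors) followed after values were seen, and 10 members were dropped and 1 added where a symbol matched another gene. Genes named are the 12 largest in each direction with a symbol and the 2 largest without, the 8 smallest p in each direction among genes called in neither comparison with DMSO, up to 4 genes of each list and every ecdysone and juvenile hormone gene. Other names are called members of a list, chosen after their values were seen. Replicate numbers were not taken to pair the ants.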

Additional observations from a re-analysis of the deposited data

Results flagged for a closer look

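Among 208 groups of 7 libraries (the called genes named here and jhamt, in 20E and JH3), 27 held a library whose distance to its nearest neighbour took up most of the group's range. The cut-off used would give such a library in about 1 group in 20 for independent, normally distributed values. The same 14 libraries recur in all groups, so that rate is not a baseline for this count. Of the 27, 16 were 20E replicate 6, 4 were JH3 replicate 1 and 7 were other libraries.

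Values of 20E replicate 6 were high in each of its 16 cases. The authors' scaling relative to total reads was highest in this library, 1.298 against 0.881 to 1.104 in the others. Its FPKM values are therefore raised relative to total-read scaling, and the part of this in the 16 cases was not tested. For genes higher in JH3 it was nearer to JH3 than its group, with 14.43 FPKM of Kr-h1 (1.72 to 2.91 in the other 20E libraries), 21.63 of Delta (8.32 to 10.6), 36.77 of Glut4EF (15.8 to 24.7), 34.12 of Oatp74D (11.6 to 19.4), 6.219 of stac (2.89 to 4.17) and 19.99 of trbl (10.6 to 14.1). For genes higher in 20E it was the highest of its group, with 28.96 FPKM of pyd (10.2 to 17.4), 882.2 of E75 (472 to 646), 15.11 of noc (8.87 to 10.7), 12.43 of ClC-a (8.31 to 9.91) and 74.31 of VAChT (42.9 to 54.0). The same held for SIFR at 9.65 FPKM (2.36 to 5.32), Clk at 21.71 (12.1 to 14.1), Sesn at 69.28 (35.4 to 47.8), ptc at 4.424 (1.72 to 2.44) and cnn at 30.87 (15.7 to 20.6).

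JH3 replicate 1 held 25.63 FPKM of ken (14.9 to 18.3 in the other JH3 libraries), 17.31 of side-III (24.0 to 28.0), 2.866 of if (5.48 to 7.46) and 6.992 of cnn (9.99 to 12.2). JH3 replicate 2 held 2.119 FPKM of Gasp (0.21 to 0.766), 44.46 of HDAC4 (24.0 to 30.9), 11.15 of shg (8.27 to 9.50) and 71 of Src64B (38.2 to 51.8). JH3 replicate 3 held 16.06 FPKM of Cad74A (5.29 to 9.39), and JH3 replicate 6 held 10.23 of DAAM (7.05 to 8.26) and 6.886 of 5-HT2A (4.5 to 5.53).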

How the results depend on the processing

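The count of 501 genes between 20E and JH3 was 313 without the run term, 788 with library weights, and 169 and 160 within runs 190514 and 200212. Leaving out each library in turn gave 414 to 569. The 313 genes of 20E against DMSO became 193, 551, 120 and 50 under those settings, and 219 to 354 with each library left out. The 87 of JH3 against DMSO became 49, 180, 14 and 8, and 151 with total-read scaling, 161 with the length trend removed, 134 without 20E replicate 6 and JH3 replicate 1, and 60 to 137 with each library left out (137 without 20E replicate 6). The 234 genes called in neither became 141 without the run term, 81 and 114 within the runs, and 187 to 304 with each library left out. Pseudocounts, filters, voom, quantile scaling and a fit of the groups compared kept these counts within 1.5 times; JH3 against DMSO gave 128 genes with quantile scaling.

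Same-numbered libraries deviated together in some pairs only (correlation over 0.1 in 6 of 17 pairs, from -0.378 to 0.496), so the numbers were not taken to pair the ants. A fit with the replicate number as a block called 531 genes between 20E and JH3 (472 of the 501), 274 and 96 for 20E and JH3 against DMSO, and 294 in neither; 7 libraries correlated best with their own number. That block ended the calls of Hr38, Cyp4aa1, E(z), Gli and Mtp.

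Of 103 named genes with a call, 0 changed direction under any alternative and 90 kept the call without each 20E or JH3 library in turn. Those that lost it in some were Cyp4aa1, E(z), Eip63E, Gli, Hr38, Jra, Mtp, N, Oatp74D, SIFR, arm, if and shg. The cause of these changes was not tested. Brains of 7 ants per hormone and a median of 559 reads per tested gene limit the small and low-level differences.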

Other observations

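Other named genes outside the described groups also differed between the hormones; these were chosen after their values were seen, and the differences are log2(FPKM + 0.5) with the standard error and limma's adjusted p over all genes tested. GlyS, glycogen synthase, had 14.1 to 17.3 FPKM under 20E, against 8.62 to 11.1 FPKM under JH3 and 8.83 to 11.5 FPKM under DMSO, with no overlap between the hormones (0.73 ± 0.07, adjusted p = 1.32e-06). Pgm1, phosphoglucomutase, had 9.48 to 16.2 FPKM under 20E and 4.09 to 10.4 FPKM under JH3, and these ranges overlapped (0.70 ± 0.14, adjusted p = 0.00272). Trim9, a ubiquitin ligase known from axon guidance, had 8.07 to 15.1 FPKM under 20E and 3.83 to 6.19 FPKM under JH3, without overlap (0.997 ± 0.14, adjusted p = 0.000111). The tweety-type channel gene tty had 15.5 to 35.4 FPKM under 20E and 5.72 to 15.2 FPKM under JH3, also without overlap (0.97 ± 0.14, adjusted p = 8.93e-05).

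Among genes lower under 20E, CAH1, a carbonic anhydrase, had 11.5 to 18.2 FPKM under 20E and 17.8 to 34.5 FPKM under JH3 (-0.69 ± 0.14, adjusted p = 0.00332). Rpb8, a subunit shared by the RNA polymerases, had 25.3 to 47.4 FPKM under 20E, against 47.0 to 68.6 FPKM under JH3 and 51.1 to 70.8 FPKM under DMSO (-0.64 ± 0.13, adjusted p = 0.00327).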
